A study of Rattus norvegicus with 12 samples.

Results

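The circadian clock repressors are the proteins that close the negative limb of the molecular clock. The rule takes rows of the count table by the symbols of 8 members: the period genes Per1, Per2 and Per3, the cryptochrome genes Cry1 and Cry2, and Ciart, Bhlhe40 and Bhlhe41. Of these, 7 had a row among the 17337 gene symbols of the count table, and Bhlhe41 was not analysed here. Their transcripts were measured by RNA sequencing in the whole striatum of 12 male wild-type Sprague-Dawley rats, 8 weeks old when training began. The sample labels place all 12 after 16 days of methamphetamine (MA) self-administration. The striatum is the forebrain input nucleus of the basal ganglia and a main target of the drug. MA12 rats (n = 4, numbered 21, 31, 4N and 7N) were killed after 12 h of abstinence and MA24 rats (n = 4, numbered 9N, 14N, 15N and 16N) after 24 h. The third group (n = 4, numbered 9, 11, 12 and 13) is labelled non-addicted after the same 16 days, and its criterion and its time of killing are not given in the sources used here. The paper describes a saline self-administration control and no non-addicted group, so MA intake in this group rests on the labels alone. No library labelled as saline was analysed here.

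In the clock, the transcription factors CLOCK and BMAL1 (gene Arntl) bind E-box sequences and switch on their own repressors, and the PER and CRY proteins return to the nucleus and shut the pair off. CIART, also called CHRONO, represses CLOCK and BMAL1 as well, and BHLHE40 and BHLHE41 (DEC1 and DEC2) compete for E-boxes. The loop runs in most tissues, the striatum included, and the level of each transcript depends on the time of day. Per1 and Per2 are in addition switched on directly by glucocorticoid hormone and by neuronal activity. The MA12 and MA24 rats were housed under a light-dark cycle and killed 12 or 24 h after their last session, so length of abstinence and time of day cannot be told apart.

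The promoter sequences of 3 members are shown first because CLOCK and BMAL1 act through E-box letters and these 3 windows differ in how many they hold. In the striatum Ciart and Per2 were higher in MA24 than in MA12 rats, whereas Bhlhe40 did not pass the test. Whether the number of motifs goes with these differences was not tested. Each line holds the 250 bases upstream of a RefSeq transcription start in the rat assembly GRCr8, written 5′ to 3′ on the gene's own strand. Capitals mark the E-box CACGTG, its variant CACGTT and the D-box TTATGTAA, the site of the factor DBP and its relatives. The windows are chr2:186112247-186112496 on the minus strand for Ciart, chr9:99496994-99497243 on the minus strand for Per2 and chr4:143174200-143174449 on the plus strand for Bhlhe40.
Ciart: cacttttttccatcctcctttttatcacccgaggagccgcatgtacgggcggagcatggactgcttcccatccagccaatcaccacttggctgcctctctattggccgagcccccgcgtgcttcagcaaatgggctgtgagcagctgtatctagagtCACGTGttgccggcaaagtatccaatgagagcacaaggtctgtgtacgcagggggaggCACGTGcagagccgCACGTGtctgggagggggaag
Per2: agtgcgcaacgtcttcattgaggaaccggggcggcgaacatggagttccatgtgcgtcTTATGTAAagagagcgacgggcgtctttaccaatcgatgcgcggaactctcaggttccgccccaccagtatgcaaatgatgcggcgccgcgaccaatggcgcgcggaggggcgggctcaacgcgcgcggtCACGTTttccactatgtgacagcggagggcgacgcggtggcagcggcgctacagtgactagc
Bhlhe40: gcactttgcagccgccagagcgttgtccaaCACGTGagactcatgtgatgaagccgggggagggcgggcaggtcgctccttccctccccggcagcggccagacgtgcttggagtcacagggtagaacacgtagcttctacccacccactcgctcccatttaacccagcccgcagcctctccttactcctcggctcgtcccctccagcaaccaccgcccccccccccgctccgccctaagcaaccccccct
The Ciart sequence held 3 copies of CACGTG, at positions -93 to -88, -35 to -30 and -21 to -16 from the start. Among 33469 RefSeq promoter windows of 300 bases (250 before and 50 after the start), 6.42% held at least 1 copy and 19 windows, or 0.0568%, held 3 or more. Per2 carried CACGTT at positions -62 to -57, a sequence found in 4.83% of windows on either strand. It also carried TTATGTAA at positions -192 to -185, found in 0.893% of windows. Bhlhe40 had a single CACGTG, at positions -220 to -215. Of the other members, Bhlhe41 had 1 CACGTG at positions -48 to -43 and Cry2 had CACGTT on the minus strand at positions -212 to -207. The windows of Per1 and Per3 held none of these 3 motifs, which says only that the letters are absent there. The Per1 window lay 5374 bases inside the outer limits of the gene, so an upstream start of Per1 was not covered. Ciart's window lay 1532 bases inside its gene. A window was found for 7 of the 8 members, all but Cry1. Both strands were searched, no match overlapped another, and a match describes the letters and not a bound site.

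The libraries held between 17908962 and 23850284 counts, and the 7 members were well covered, from 275 counts for Ciart in MA12 rat 21 to 5246 for Cry2 in MA24 rat 9N. Levels are given below as CPM (a gene's count scaled to a fixed library total), scaled between libraries by the trimmed mean of M-values (TMM). CPM does not correct for transcript length, so levels are compared between rats and not between genes. Markers of striatal projection neurons were strong in every library, with a summed level of 13713 to 18160 CPM over 9 of 9 genes, against 2.69 to 10.2 CPM for 4 cortical excitatory markers. The 6 hypothalamic markers, which would show tissue from near the master clock of the brain, summed to 1.21 to 3.49 CPM in the MA12 and MA24 libraries and 1.89 to 13.5 CPM in the non-addicted ones, with Pmch and Six6 at 0 in all 12. The highest sum was in non-addicted rat 11, where Avp, the vasopressin gene, measured 8.93 CPM, against at most 0.959 in the other 11 rats.

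Groups were compared on raw counts with the quasi-likelihood test of edgeR. A differentially expressed gene (DEG) had an adjusted p under 0.05 and changed 1.5-fold or more (FC, fold change), with p-values adjusted over all genes tested by the Benjamini-Hochberg method. Between 12 and 24 h of abstinence, 2 members were DEGs, Per2 and Ciart, and both rose, by an FC of 1.95 and 1.97. For comparison, 2.45% of the 10754 genes tested were DEGs, and 0.735% were DEGs that were higher at 24 h. Per3 passed the adjusted p, as did 1.84% of all genes in the higher direction, but not the FC threshold. Per1, Cry1, Cry2 and Bhlhe40 did not pass. All 7 members passed the filters on low counts and low variance. Their median log2FC was 0.49, and it was -0.02 over all genes tested. The log2FC was above 0 in 6 of the 7, as it was in 48.3% of all genes. The 4 genes Per2, Per3, Cry2 and Ciart were higher in all 4 MA24 rats than in any MA12 rat, a separation seen in that direction in 7.16% of all genes. The striatum was sequenced as bulk tissue, in which fewer cells expressing a gene and less RNA per cell cannot be told apart.

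**Figure D1:**
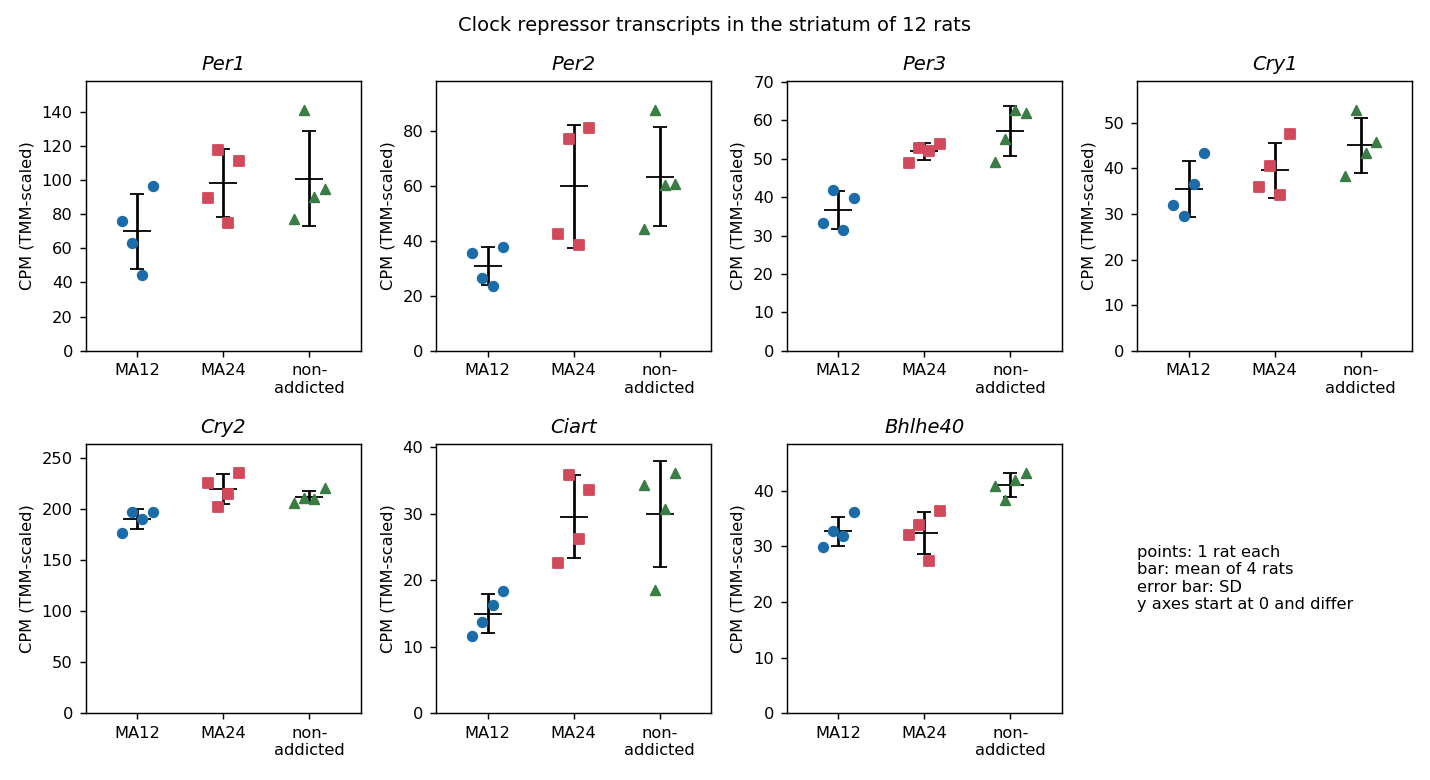
TMM-scaled CPM (y axes, starting at 0, a separate range for each gene) of the 7 clock repressors in each MA12, MA24 and non-addicted rat (points), with the mean (long bar) and SD (error bar) of 4 rats. Per2, Per3, Cry2 and Ciart lie lower in all 4 MA12 rats than in any other rat, and Bhlhe40 lies higher in all 4 non-addicted rats than in any other rat.

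Of the period genes, whose proteins form the core of the repressor complex, Per2 measured 35.3, 26.5, 23.3 and 37.5 CPM in MA12 rats 21, 31, 4N and 7N. In MA24 rats 9N, 14N, 15N and 16N it measured 42.5, 76.8, 38.4 and 81.0 CPM. The MA24 rats fell into a high pair, 14N and 16N, and a low pair, 9N and 15N, and rat 15N lay just above the highest MA12 rat. Over genes with a mean count of at least 50, libraries 14N and 16N were also the least like the rest. Their median Pearson r on log2 CPM with the other libraries was 0.977 and 0.981, against 0.983 to 0.986 elsewhere. The part of this in the Per2 values was not tested. The log2FC was 0.96 (SE 0.20, 95% interval 0.53 to 1.39), and the adjusted p in edgeR's test was 0.0141. Non-addicted rats 9, 11, 12 and 13 had 44.2, 87.5, 60.2 and 60.8 CPM, all of them above every MA12 rat.

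Per1, known as an early-response gene of the clock, had 75.9, 63.1, 44.6 and 96.7 CPM in the same order of MA12 rats and 89.6, 117, 74.9 and 111 CPM in the MA24 rats. The groups overlapped: MA12 rat 7N exceeded MA24 rats 9N and 15N, and MA12 rat 21 exceeded 15N. The log2FC was 0.49 (SE 0.18, 95% interval 0.12 to 0.86), and the adjusted p in edgeR's test was 0.105. The call depended on rat 7N: without it the log2FC was 0.69 with an adjusted p of 0.0154, which would make Per1 a DEG as well. In the non-addicted rats Per1 measured 77.4, 141, 90.4 and 94.8 CPM, and rat 11 had the highest value of all 12.

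Per3, whose loss leaves behavioural rhythms largely intact, separated the groups more tightly. MA12 rats had 33.4, 41.9, 31.4 and 39.9 CPM, MA24 rats had 48.9, 52.9, 52.1 and 53.8 CPM, and non-addicted rats had 49.1, 55.2, 62.7 and 61.9 CPM. Within MA24 the coefficient of variation (SD over mean) was 4.08% for Per3, against 37.4% for Per2. Its log2FC between MA24 and MA12 was 0.50 (SE 0.11, 95% interval 0.28 to 0.73), a 1.42-fold difference (edgeR, adjusted p 0.0147).

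The cryptochromes, which hold the CLOCK and BMAL1 pair in its repressed state, differed less. Cry1 measured 31.9, 29.5, 36.6 and 43.5 CPM in MA12 rats and 36.0, 40.6, 34.1 and 47.6 CPM in MA24 rats, with wide overlap. Its log2FC of 0.16 had a 95% interval of -0.11 to 0.44, and the adjusted p was 0.467 in edgeR's test. Cry2 measured 176, 197, 190 and 197 CPM in MA12 rats and 226, 202, 215 and 235 CPM in MA24 rats. Every MA24 rat exceeded every MA12 rat in Cry2, but the difference was small, with a log2FC of 0.21 (SE 0.09) and an edgeR adjusted p of 0.179. Over the 12 rats the highest Cry2 level was 1.33 times the lowest, the narrowest spread among the members, whereas the same ratio was 3.75 for Per2.

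Ciart measured 11.6, 13.7, 16.3 and 18.4 CPM in MA12 rats and 22.5, 35.9, 26.1 and 33.6 CPM in MA24 rats. The groups did not overlap. The log2FC of 0.98 (SE 0.16, 95% interval 0.64 to 1.32) had an adjusted p of 0.00558 in edgeR's test, the lowest among the members. Bhlhe40 measured 29.9, 32.8, 31.9 and 36.2 CPM in MA12 rats and 32.1, 33.9, 27.4 and 36.3 CPM in MA24 rats. These values interleaved, and the log2FC was -0.01 with a 95% interval of -0.25 to 0.23.

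Non-addicted rats were then set against the MA12 group. In this comparison 3 members were DEGs, Per2, Per3 and Ciart, and all 3 were higher in the non-addicted rats. Only 0.251% of the 10758 genes tested were DEGs here, and 0.102%, or 11 genes, were DEGs that were higher in non-addicted rats. The same 4 MA12 libraries served both comparisons, so their results are not independent. All 7 members had a log2FC above 0, as did 47.7% of all genes, and 5 members (Per2, Per3, Cry2, Ciart and Bhlhe40) did not overlap between the groups, as was so in the higher direction for 3.5% of all genes. The median log2FC of the 7 members was 0.52.

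Per2 had a log2FC of 1.04 (SE 0.17, 95% interval 0.68 to 1.39) and an edgeR adjusted p of 0.0128. For Per3 the log2FC was 0.64 (SE 0.11, 95% interval 0.40 to 0.88), a 1.56-fold difference with an adjusted p of 0.0225. Ciart measured 34.4, 18.5, 30.7 and 36.2 CPM in non-addicted rats 9, 11, 12 and 13. Rat 11 was the lowest of its group and lay just above the highest MA12 rat, 7N, at 18.4 CPM. The Ciart log2FC was 0.997 (SE 0.18, 95% interval 0.61 to 1.38) (edgeR, adjusted p 0.0283). These 3 calls depended on the variance filter: without it, 5 of 12657 genes (0.0395%) were DEGs, none of them a member, and the adjusted p was 0.0887 for Per2, 0.0643 for Per3 and 0.0887 for Ciart. When the filter ranked variance without TMM scaling, 11 genes in place of 27 were DEGs, and Ciart was not among them (adjusted p 0.0652). Leaving out 1 rat at a time left between 1 and 4 members called, with 1 (Per2) when non-addicted rat 12 or MA12 rat 21 was omitted, 2 when non-addicted rat 9 or MA12 rat 31 (Ciart lost) or MA12 rat 4N (Per3 lost) was omitted, and 4 when MA12 rat 7N was omitted, Per1 being added (edgeR, adjusted p 0.0465).

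Cry1 reached 38.4, 52.8, 43.3 and 45.8 CPM in the non-addicted rats, with a log2FC of 0.35 (SE 0.13) and an edgeR adjusted p of 0.257. Cry2 reached 206, 210, 210 and 220 CPM, above every MA12 rat. It fell under the variance filter, and the fit without that filter gave a log2FC of 0.15 with an adjusted p of 0.389. Per1 had a log2FC of 0.52 (SE 0.19), with an adjusted p of 0.258. None of these 3 genes passed the test.

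Bhlhe40 showed a different order from the rest. The non-addicted rats had 40.8, 38.2, 41.8 and 43.2 CPM, and each of them exceeded all 8 rats of the abstinence groups. The mean was 41.0 ± 2.11 CPM (SD, n = 4) in non-addicted rats, 32.7 ± 2.61 in MA12 rats and 32.4 ± 3.77 in MA24 rats. Its log2FC was 0.32 (SE 0.10) against MA12 and 0.33 (SE 0.11) against MA24, with adjusted p-values of 0.167 and 0.145 in edgeR's test, so neither difference passed.

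Between non-addicted and MA24 rats no member was a DEG in edgeR's test or in DESeq2, while 0.456% of 10744 genes were DEGs in edgeR's test. At an unadjusted p below 0.05, 1 member passed (Bhlhe40), and 17.5% of all genes did. Bhlhe40 was also the member whose groups did not overlap, as was so in the higher direction for 5.1% of all genes. The log2FC was 0.08 for Per2 (95% interval -0.36 to 0.52), 0.02 for Ciart (-0.36 to 0.39) and 0.03 for Per1 (-0.30 to 0.37). Each interval reaches 0.30 or more from 0 on both sides, so these values do not show that the levels were equal. Per3 had a log2FC of 0.14 (-0.08 to 0.35), Cry1 0.18 (-0.07 to 0.44) and Cry2, in the fit without the variance filter, -0.05 (-0.20 to 0.10).

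**Figure D2:**
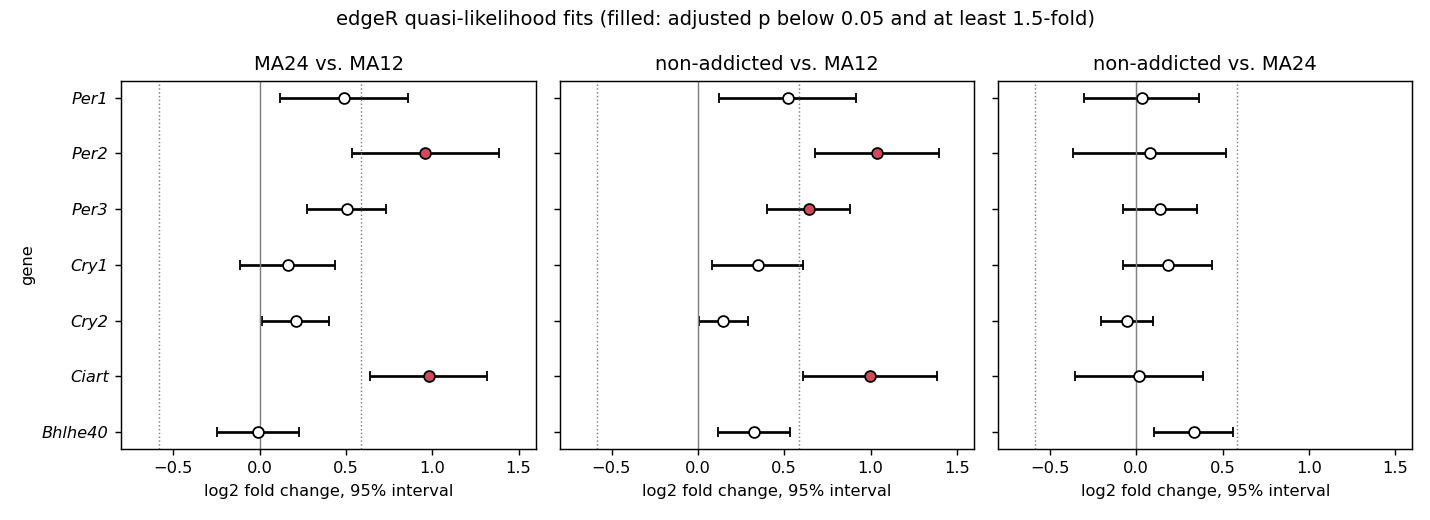
Log2FC (x axis) with its 95% interval for each clock repressor (y axis) in the 3 comparisons. Solid vertical lines mark 0, dotted lines mark 1.5-fold, and filled points are DEGs. Cry2 comes from the fit without the variance filter in the panels for non-addicted rats. Per2 and Ciart lie near 1 in both panels that use MA12 as the reference and near 0 in the remaining panel.

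The order of the group means was MA12, then MA24, then non-addicted for Per1, Per2, Per3, Cry1 and Ciart. The step from MA24 to non-addicted rats did not pass the test for any of the 5. For Per2 the means were 30.7 ± 6.83, 59.7 ± 22.3 and 63.2 ± 17.9 CPM (SD, n = 4 each), and for Ciart 15.0 ± 2.98, 29.5 ± 6.25 and 29.9 ± 7.96 CPM. In Cry2 the order was MA12, non-addicted and MA24, at 190 ± 9.62, 211 ± 6.17 and 219 ± 14.3 CPM.

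From rat to rat, Per1 and Per2 varied together, with a Pearson r of 0.91 on log2 CPM over the 12 rats and 0.88 after each group's mean was subtracted. Cry1 went with both, at 0.65 with Per1 and 0.75 with Per2 after the group means were subtracted. Without MA12 rat 7N the 3 values were 0.90, 0.51 and 0.75, and without non-addicted rat 11 they were 0.85, 0.55 and 0.69. Ciart had an r of 0.64 with Per2 as measured and 0.01 with group means subtracted, and with Per1 it was 0.43 and -0.16. These low values moved with single rats. Non-addicted rat 11 had the highest Per1, Per2 and Cry1 of the 12 rats and the lowest Ciart of its own group. Without it the r of Ciart with group means subtracted was 0.50 with Per2, 0.34 with Per1 and 0.74 with Cry1. Without MA12 rat 7N the same values were -0.10, -0.42 and -0.01. Rat 11 is also the library with the high Avp, and it had the highest Oxt of the 12, at 2.07 CPM, next to 1.67 in non-addicted rat 13. The part of hypothalamic tissue in its values was not tested, and without rat 11 the same 3 members were called in non-addicted against MA12 rats. In MA12 rat 4N, the lowest Per1 and Per2 of the 12 rats stood beside the second highest Ciart of the group. All values of a rat come from 1 library, and no test was made of these correlations.

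**Figure D3:**
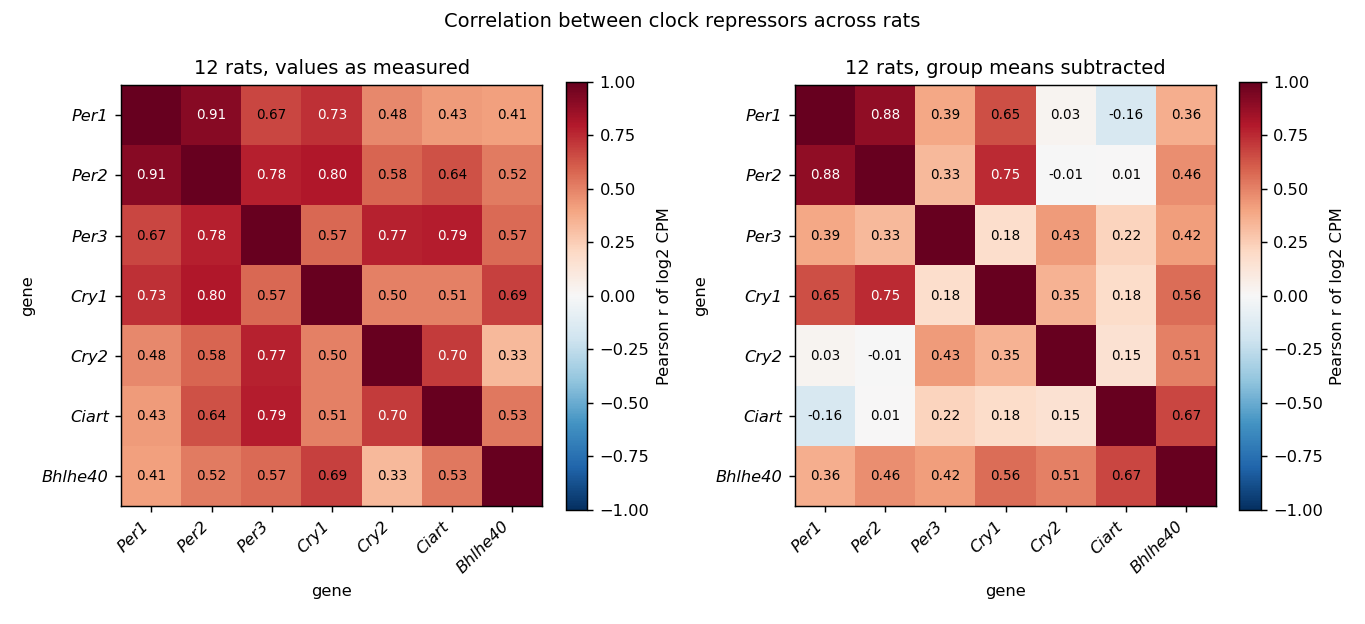
Pearson r of log2 CPM between each pair of clock repressors (both axes) over 12 rats, as measured (left) and after subtracting each group's mean (right). In the right panel Per1, Per2 and Cry1 keep r values of 0.65 to 0.88 with each other, while Ciart stands at 0.01 with Per2 and -0.16 with Per1. These 2 values of Ciart were 0.50 and 0.34 without non-addicted rat 11, and -0.10 and -0.42 without MA12 rat 7N.

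**Figure D4:**
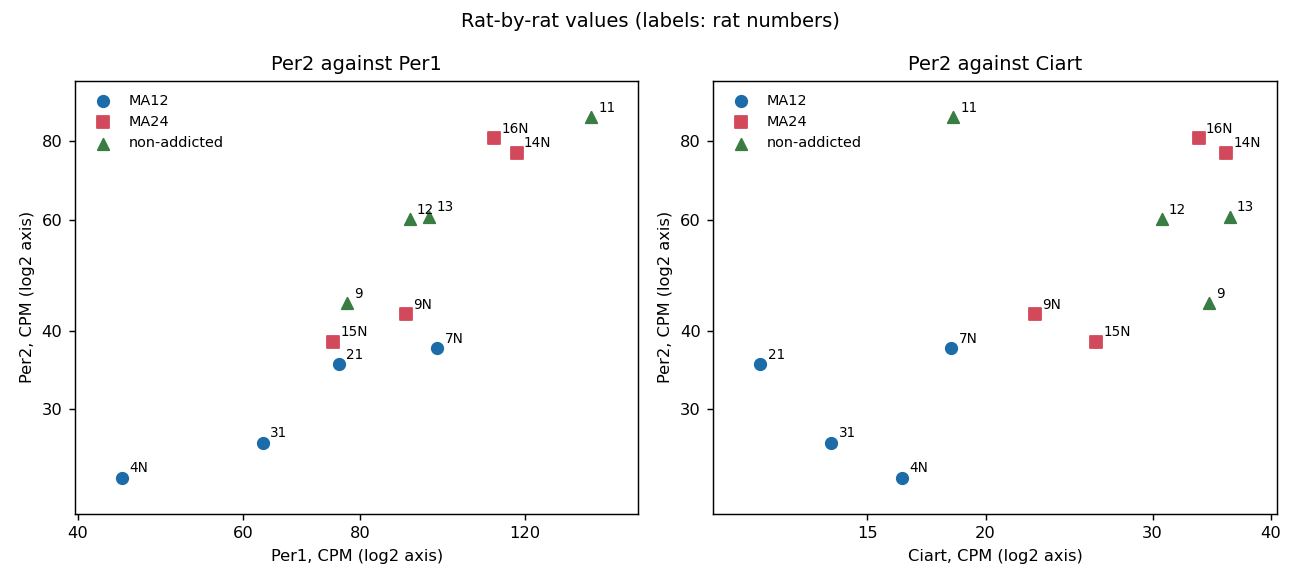
Per2 (y axes) against Per1 (left) and Ciart (right) in TMM-scaled CPM on log2 axes, with 1 point per rat labelled by rat number. Per2 rises with Per1, but MA12 rats lie lower in Per2. At a like Per1, MA12 rat 7N (96.7 CPM) has 37.5 CPM of Per2 and non-addicted rat 13 (94.8 CPM) has 60.8. In the right panel rat 11 has the highest Per2 and a low Ciart.

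The genes most like each member, by Pearson r over the 12 rats among 10758 genes with a mean count of at least 50, also differed between members. For Ciart the first was Dbp, the D-box activator and a direct E-box target of the clock, at an r of 0.96, or 0.93 with group means subtracted. Igfbp2 (0.92) and Dzip1l (0.91) followed. For Cry1 the first was Klf15, a transcription factor gene known to respond to glucocorticoid, at 0.95, then Tle1 and Rnpep at 0.92. Per1 was most like Fam214a (0.92), Whamm (0.90) and Usp19 (0.88). Per2 was most like Banp (0.93), Ltk (0.91) and Prpf38b (0.91), and Per3 like Pik3ip1 (0.91), Gpld1 (0.90) and Dzip1l (0.89). Cry2 was most like Fam134a (0.95), Csad (0.94) and Cluh (0.89). For Bhlhe40 the list read Ahctf1 (0.88), Fkbp5 (0.88) and Arf2 (0.85), where Fkbp5 encodes a co-chaperone induced by glucocorticoid. Group differences and single rats enter these r values, which are the highest of 10758 ranked for each member.

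Glucocorticoid and neuronal activity are the known direct inducers of Per1 and Per2, so the members were set beside 12 genes known to be induced by glucocorticoid and 9 induced by activity. With group means subtracted, Per1 had a median r of 0.63 with the 12 glucocorticoid-induced genes and 0.56 with the 9 activity-induced genes, and a median of -0.03 with all 10758 genes. Cry1 had medians of 0.58 and 0.62, and Per2 of 0.49 and 0.44. Those of Per3 were 0.29 and 0.26, of Bhlhe40 0.30 and 0.14, of Cry2 0.09 and 0.01, and of Ciart 0.07 and 0.07, so the members formed a range. An r above 0.5 was reached with Per1 by 8 of the 12 and 6 of the 9 genes, beside 7.29% of all genes.

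Single rats carried part of these values. MA12 rat 7N stood apart from its group in some genes of both lists. Fos, an immediate early gene, measured 25.4 CPM there and 7.01 to 8.42 in the other 3 rats. Arc, a synaptic gene induced by activity, measured 334 against 109 to 138, and Sgk1, a kinase gene induced by glucocorticoid, 159 against 54.6 to 63.0. Other listed genes set rat 7N apart less or not at all. The activity-induced Fosb measured 18.6 against 11.6 to 17.4 CPM, and the glucocorticoid-induced Zbtb16 2.99 against 2.54 to 3.26. Without rat 7N the medians of Per1 fell to 0.46 and 0.37, with 5 of the 12 and 4 of the 9 genes above 0.5, beside 8.92% of all genes. Those of Cry1 were then 0.43 and 0.45, those of Per2 0.43 and 0.36, and those of Ciart -0.15 and -0.08. Without non-addicted rat 11 the medians of Ciart were 0.45 and 0.60, and those of Per1 0.57 and 0.51. The medians of Ciart thus rose without rat 11 and fell without rat 7N. The metabolic kinase gene Pdk4, the highest of its list with these members, stood at 0.85 with Per1, 0.80 with Per2 and 0.83 with Cry1. It stood at 0.75 or more with each when either rat was left out. The lowest of that list was Mt2A, at -0.15, -0.28 and -0.35. Egr4, an immediate early gene and the highest of the activity list with Cry1, stood at 0.91, and at 0.90 without rat 7N and 0.89 without rat 11. The lowest of that list with Cry1 was Npas4, at 0.06.

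In the group comparisons, of the glucocorticoid-induced genes none was a DEG between MA24 and MA12, where their median log2FC was 0.10. In non-addicted against MA12 rats 1 of the 11 that passed both filters was a DEG, as were 0.251% of all genes. It was the transcription factor gene Zbtb16 (log2FC 1.90, SE 0.26), and the median of the list was 0.24. None was a DEG between non-addicted and MA24 rats. None of the 9 activity-induced genes was a DEG in any of the 3 comparisons, and their median log2FC was -0.14 between MA24 and MA12 and -0.24 between non-addicted and MA12 rats.

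The rest of the clock was read from 30 further genes, of which 24 had a value. The CLOCK partner gene Arntl had the opposite sign to Per2 and Ciart, with a log2FC of -0.61 (SE 0.11) between MA24 and MA12 and -0.60 (SE 0.10) between non-addicted and MA12 rats, a DEG in both. In the latter comparison 27 genes were DEGs, and 5 without the variance filter. Which of the listed genes called there stayed DEGs without the filter is not given here. Dbp was a DEG at 24 h against 12 h (0.66, SE 0.11), and its log2FC was 0.49 in non-addicted against MA12 rats (edgeR, adjusted p 0.112). Gsk3b, a kinase that phosphorylates clock proteins, was lower at 24 h (-0.63, SE 0.15). No other gene of the list was a DEG. Of the 18 that passed both filters in MA24 against MA12 rats, 1 was a higher and 2 were lower DEGs. Of 20 in non-addicted against MA12 rats, 0 were higher and 1 was a lower DEG. Of 16 in non-addicted against MA24 rats, none was a DEG. Over all genes tested 2.45%, 0.251% and 0.456% were DEGs in either direction, in the same order. The median log2FC of the list was -0.08, -0.05 and 0.04 in the 3 comparisons. With each group's mean subtracted, Dbp stood at an r of 0.93 with Ciart, 0.72 with Bhlhe40 and -0.21 with Per1. Without rat 11 these were 0.90, 0.70 and 0.15, and without rat 7N they were 0.93, 0.69 and -0.44.

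Other cell types differed between the groups and are given here beside the members. The 8 vascular markers summed to 376 to 532 CPM in non-addicted, 512 to 662 in MA12 and 594 to 641 in MA24 rats, none of them at 0 in any group. Of the 8, 3 were lower DEGs in non-addicted against MA12 rats, 2 in non-addicted against MA24 rats and 1 in MA24 against MA12 rats. Over all genes tested, 0.251%, 0.456% and 2.45% were DEGs in either direction, in the same order of comparisons. The 4 choroid plexus and ependymal markers summed to 24.5 to 59.9 CPM in non-addicted, 13.6 to 36.9 in MA12 and 16.8 to 22.6 in MA24 rats. Of these, 1 was a DEG, higher in non-addicted against MA24 rats, where the median log2FC of the 4 was 1.14. None was a DEG in the remaining comparisons. The 3 oligodendrocyte markers summed to 10064 to 15021 CPM in non-addicted, 10439 to 18967 in MA12 and 15693 to 18425 in MA24 rats. The hypothalamic markers had a median log2FC of 2.01 in non-addicted against MA12 rats over the 4 with enough counts, all above 0 and none a DEG. The part of these cell types in the repressor differences was not tested.

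The rat numbers with and without the suffix N were unevenly spread, since all 4 MA24 rats, 2 MA12 rats and no non-addicted rat carried it, and its meaning is not given. With the kind of number as a covariate no member was called between MA24 and MA12, where Per2 had a log2FC of 0.97 (adjusted p 0.0992) and Ciart 0.76 (adjusted p 0.0705). Within the rats that carried the N, 2 MA12 against 4 MA24, both were still called by edgeR's test, on a spread that rests on few rats. In non-addicted against MA12 rats the covariate left Ciart as the single member called, and the rats without the N gave 3 members called.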

How the data were processed

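RNA was extracted with TRIzol from the striatum of 12 rats, made into TruSeq RNA v2 libraries and sequenced in pairs. According to the submitters' processing notes and the methods, Cutadapt 1.18 trimmed the reads, STAR 2.7.0e placed them on rn6 and featureCounts counted them, and HTSeq 0.12.4 is listed too. Strand and multimapping settings are not given in the sources used here. The authors deposited raw counts per gene symbol, 17337 rows, of which 14725 had a count. Library totals had a median of 20192470, and TMM factors lay between 0.959 and 1.06.

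Columns were assigned to rats by library name, and the sample labels used here name no batch. The paper states that RNA of all its groups was extracted as 1 batch, although it describes no non-addicted group. Each comparison used the 8 libraries of its 2 groups. Genes with a mean count of 4 or less were dropped, then the 15% with the lowest variance of TMM-scaled log2 CPM (prior count 2). The thresholds are the study's, but the study filtered over its whole sample set and before TMM scaling. The scaled ranking was taken with the counts of DEGs under both rankings known. Tests used edgeR 4.0.16 (glmQLFit, glmQLFTest) in R 4.3.3, with TMM and Benjamini-Hochberg adjustment over all genes tested. A member removed by the variance filter was taken from the fit without it. SE was derived from log2FC and F, with 95% intervals. The scripts were tested on simulated data. Alternatives were DESeq2 1.42.0, RLE factors, other filters, all 3 groups in a fit, rats left out in turn (for correlations, rats 7N and 11, chosen after seeing the data), and the kind of rat number. Whether rats differed in housing or litter is not given.

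Promoter windows and motif counts came from RefSeq (GRCr8), because no rn6 sequence was used here. The text names all members, genes of the clock, glucocorticoid and activity lists that were DEGs, a few further listed genes, and the 3 genes most like each member. Cell type markers that were DEGs are given as counts. Fos, Fosb, Junb, Arc, Npas4, Egr4, Sgk1, Mt2A, Pdk4, Avp, Oxt, Vip and Hcrt were named after their values were seen. Members and lists were chosen with earlier results of these data known.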

Additional observations from a re-analysis of the deposited data

Results flagged for a closer look

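None of the 21 groups of 4 rats, 7 members in 3 groups each, had a rat that stood far from the others by Dixon's ratio, the gap of the extreme rat to its nearest neighbour over the range of the group. Of the other genes given rat by rat, MA12 rat 7N passed its 95% critical value for 4 samples with a ratio of 0.923 for Fos, 0.870 for Arc and 0.919 for Sgk1. Non-addicted rat 11 passed it for Avp, with a ratio of 0.949, and MA24 rat 16N for Oxt, with a ratio of 0.963, at 1.32 CPM against at most 0.0493 in the other 3 MA24 rats. These 5 genes were named after their values were seen. The 1.8 of 36 groups that would pass by chance holds only for genes picked without sight of their values. No excess over chance can therefore be read from these ratios. The other listed genes were not examined in this count, and some also passed the limit, such as Junb in MA12 rats (0.930).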

How the results depend on the processing

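Per2 and Ciart were called between MA24 and MA12 under every alternative except the covariate for the kind of rat number, where 0 of the members was called. Leaving out 1 rat at a time gave 2 to 3 members called. In non-addicted against MA12 rats 3 members were called, but 0 without the variance filter and 1 with the covariate, and leaving out 1 rat gave 1 to 4. Ranking variance on unscaled log2 CPM, chosen after seeing the data, left 2, since the adjusted p of Ciart became 0.0652. Under it all DEGs numbered 215 in place of 264, 11 in place of 27 and 16 in place of 49 in the 3 comparisons, in the order of the report. Likewise, all 3 groups in the fit left 2, since that of Per2 became 0.0662. No member was called between non-addicted and MA24 rats under any alternative run. The causes were not tested.

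Log2FC values near 0 changed sign. Bhlhe40 between MA24 and MA12 was 0.0018 with DESeq2, 0.0017 with RLE factors and 0.017 with the unscaled ranking, and -0.069 to 0.0497 with 1 rat left out. Cry1 in that comparison was -0.0061 in rats with the N and -0.022 with the covariate. Between non-addicted and MA24 rats Ciart was -0.0016 with the unscaled ranking and -0.0912 to 0.19 with 1 rat left out, Per1 was -0.17 to 0.14 and Per2 -0.12 to 0.26. No paired analysis was possible because no rat number is shared between groups, 9 and 9N being different rats. Differences under 1.5-fold are not called by construction, which kept Per3 out at 24 h.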
